A study of Mus musculus with 12 samples.

Results

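The genes described here encode the receptor subunits for glutamate, GABA and glycine, the main fast transmitters of the retina. Members were chosen by name, as genes whose symbol begins with Gria, Grik, Grin, Grm, Gabr, Gabbr or Glr, without the Glrx genes and Grina, and with 10 or more counts in 3 of the 9 libraries used. Of the 25655 genes in the tables, 56 had a matching name, 5 of these were left out by name, and 3 stayed below the count minimum, which left 48 members. They were 16 ionotropic glutamate receptor subunits (7 NMDA, 4 AMPA and 5 kainate), 8 metabotropic glutamate receptors, 17 GABA-A subunits with the rho subunits included, 2 GABA-B subunits and 5 glycine receptor subunits. At the minimum, Gabre lay just inside with 7 to 23 counts per library, while Glrp1, Gabrp and Gabra6 lay just outside with 0 to 3 counts.

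In the retina, photoreceptors and bipolar cells release glutamate, and amacrine and horizontal cells release GABA or glycine. AMPA, kainate and NMDA receptors are tetrameric cation channels that excite the cell, whereas GABA-A and glycine receptors are pentameric chloride channels that usually inhibit it. ON bipolar cells invert the light signal with a metabotropic glutamate receptor, encoded by Grm6, that closes a cation channel through a G protein, and bipolar terminals carry GABA receptors built from rho subunits. Retinal ganglion cells, whose axons form the optic nerve, receive their excitatory input through AMPA and NMDA receptors.

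The samples were whole retinas of C57BL/6J mice (C57BL/6 in the strain label), 8-10 weeks old by the sample labels, in which the left optic nerve had been crushed. Every group carried this injury and received 1 intravitreal injection, and the retinas were collected on day 2 after it. The groups differed in what was injected, with 3 libraries each for PBS (the control), fluvastatin (a statin, which blocks the HMG-CoA reductase step of cholesterol synthesis), MBV (matrix-bound nanovesicles, here prepared from porcine urinary bladder) and the combination of MBV and fluvastatin. No uninjured retina was among the libraries, so the values describe treatment after injury and not the injury itself, and the combined treatment was not analysed here at the level of libraries.

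The 9 libraries of the PBS, fluvastatin and MBV groups held 21349516 to 30992040 counts on genes. As a check of the tissue, the 5 rod markers had a mean log2(CPM + 0.5), where CPM is the count scaled to a common library size, of 11.41 to 12.07 over the libraries, the highest of the 14 marker lists examined. In edgeR's test at an adjusted p under 0.05, 19.6% of all genes tested were called with fluvastatin (9.36% higher and 10.2% lower). With MBV 26.1% were called (12% higher and 14.1% lower). Lower levels than with PBS were called for rod markers (2 of 5 with fluvastatin and 4 of 5 with MBV), bipolar cell markers (2 of 7 and 2 of 7) and markers of Müller glia (4 of 5 and 2 of 5) and of pigment epithelium and melanocytes (3 of 5 and 3 of 5). Of the bipolar cell markers, Grm6 was not called and lay above PBS, at log2 fold changes of 0.25 and 0.31. With MBV, 3 of 4 lens markers were higher. Retinal ganglion cell markers were higher for 2 of 8 with fluvastatin and 0 of 8 with MBV, and amacrine cell markers for 2 of 6 and 1 of 6. MBV library 3 had the highest level of monocyte and neutrophil markers, -0.25, -0.63 and 1.11 in the 3 MBV libraries against -0.71 to -0.24 in the others. The part of these shifts in the results below was not tested. In whole retina, moreover, fewer cells of a type and less RNA per cell cannot be told apart. The sample labels number the libraries 1 to 3 for PBS and again for fluvastatin, and 4 to 6 for MBV and again for the combined treatment. The repeated numbers place PBS and fluvastatin in different sets, so that set and treatment cannot be told apart between them. Which of these sets holds MBV is not stated. A difference between sets therefore cannot be told apart from treatment in the comparisons with MBV either.

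All 48 subunits were present in the injured, PBS-treated retina at levels that differed widely between genes. Per kb of exon, the highest level was that of Gabrr1, 28.7 ± 3.38 CPM per kb (SD, n = 3), with Gabrr2 at 22.4 ± 2.69 and Gabbr1 at 21.3 ± 0.124 also near the top. Gabrr1 and Gabrr2 encode the rho subunits of bipolar cells, and Gabbr1 the GABA-binding subunit of the GABA-B receptor. Grm6 stood at 18.2 and Grik1 at 18.1. The SDs of Gabrr2 and Gabbr1 overlap, as do those of Grm6 and Grik1. When the length of the canonical transcript replaced the union of exons, Grik1 stood at 34.1 CPM per kb and Gabrr1, at 29.7, no longer came first, while 8 of the 10 highest members were shared, so the order at the top depends on the transcript assumed.

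Within families, the leading member stood well apart from the lowest. Among NMDA subunits the obligatory Grin1 was highest, at 7.06 CPM per kb, and Grin2c lowest, at 0.181. Among AMPA subunits the range was narrow, from 4.5995 for Gria3 to 10.2 for Gria1. Kainate subunits ran from 0.5702 for Grik4 to 18.1 for Grik1, the subunit used by OFF bipolar cells. Of the glycine receptor subunits, the alpha subunit Glra1 was highest per kb of exon, at 10.9. The beta subunit Glrb, which links the receptor to its scaffold, stood at 5.98. These orders depend on the length used. Per kb of canonical transcript, Glrb stood at 13.1 and Glra1 at 10.9, and Gria4, at 22.4, stood above Gria1, at 14.2. Per kb of exon, the lowest member of all was Gabra5, at 0.0933 CPM per kb and 21 to 40 counts per library. Per kb of canonical transcript it was Gabre, at 0.160, with Gabra5 at 0.248.

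**Figure D1:**
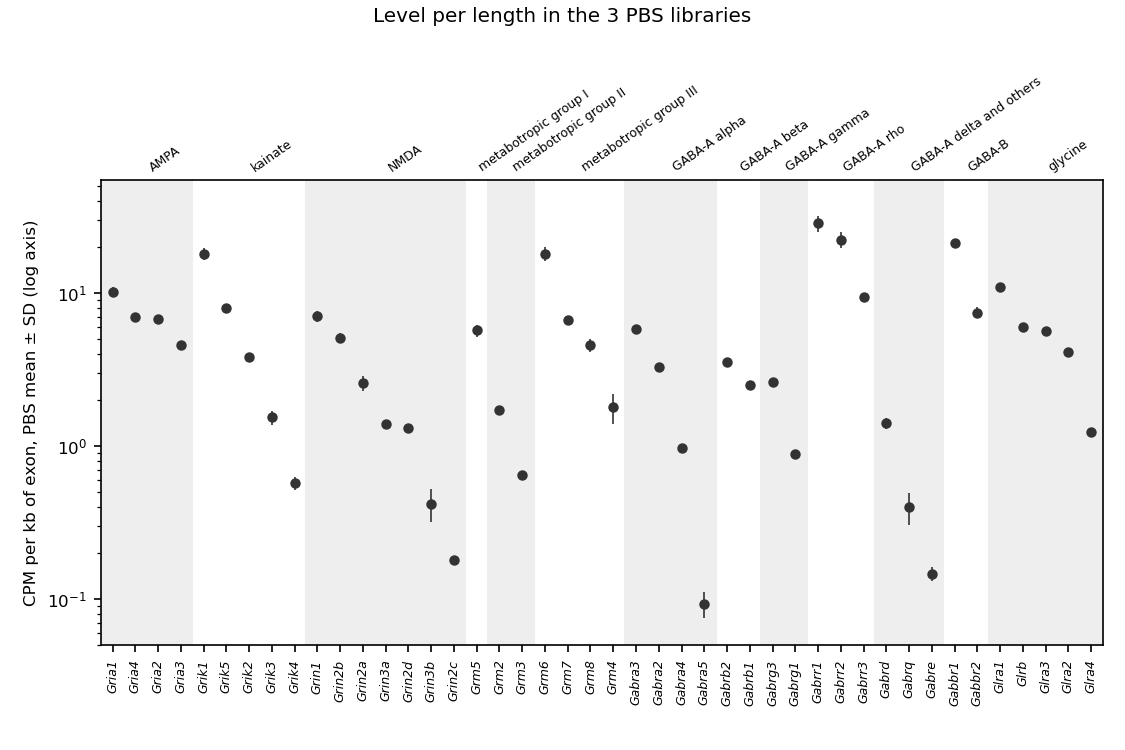
Mean level of 44 of the 48 subunits in the 3 PBS libraries, as CPM per kb of exon on a log axis, with bars for the SD; shaded bands separate the families. Gabrr1 and Gabrr2 stand at the top and Gabra5 at the bottom.

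Against PBS, fluvastatin was followed by higher transcript levels of many glutamate receptor subunits and of both GABA-B subunits, and by lower levels of a few GABA-A subunits. With an adjusted p under 0.05 in edgeR's quasi-likelihood test, Benjamini-Hochberg adjusted over all 18818 genes tested, 18 of the 48 members changed, 14 higher and 4 lower. By the same rule 19.6% of all genes tested changed (9.36% higher and 10.2% lower), and 23.8% of the 15322 genes that met the same count minimum as the members (11.4% higher and 12.4% lower). The members' median log2 fold change was 0.14, with 34 of 48 above 0, while the median of all genes tested was -0.01. In 18 of the 48 members all 3 fluvastatin libraries lay above all 3 PBS libraries and in 6 below, beside 17.3% and 19.3% of all genes tested. All changes were small: no member reached a fold change of 2, which 1.17% of all genes tested did together with the adjusted p. With the offset for base composition and length described below, 6 of the 18 calls remained. The labels do not say that libraries of a group came from separate animals, so p-values measure the spread between these libraries.

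MBV gave counts of the same size. Here too 18 of the 48 members changed, 14 higher and 4 lower, beside 26.1% of the 18897 genes tested (12% higher and 14.1% lower) and 31.8% of the genes at the members' count minimum (14.7% higher and 17.2% lower). The median log2 fold change of the members was 0.17, with 34 of 48 above 0, against 0.01 for all genes tested. In 19 members all MBV libraries lay above all PBS libraries and in 4 below, beside 20.3% and 21%. With the offset, 7 of the 18 calls remained. No member reached a fold change of 2 with MBV either, beside 1.95% of all genes tested. Both comparisons use the same 3 PBS libraries, so their likeness is not independent evidence, and the values of each are set side by side below. The counts also moved with single libraries. Without the first PBS library, 7 members were called with fluvastatin and 10 with MBV, and without the second PBS library 11 were called with fluvastatin. Leaving out the second or the third fluvastatin library gave 8 and 10 calls, and leaving out the third MBV library raised the MBV count to 28.

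**Figure D2:**
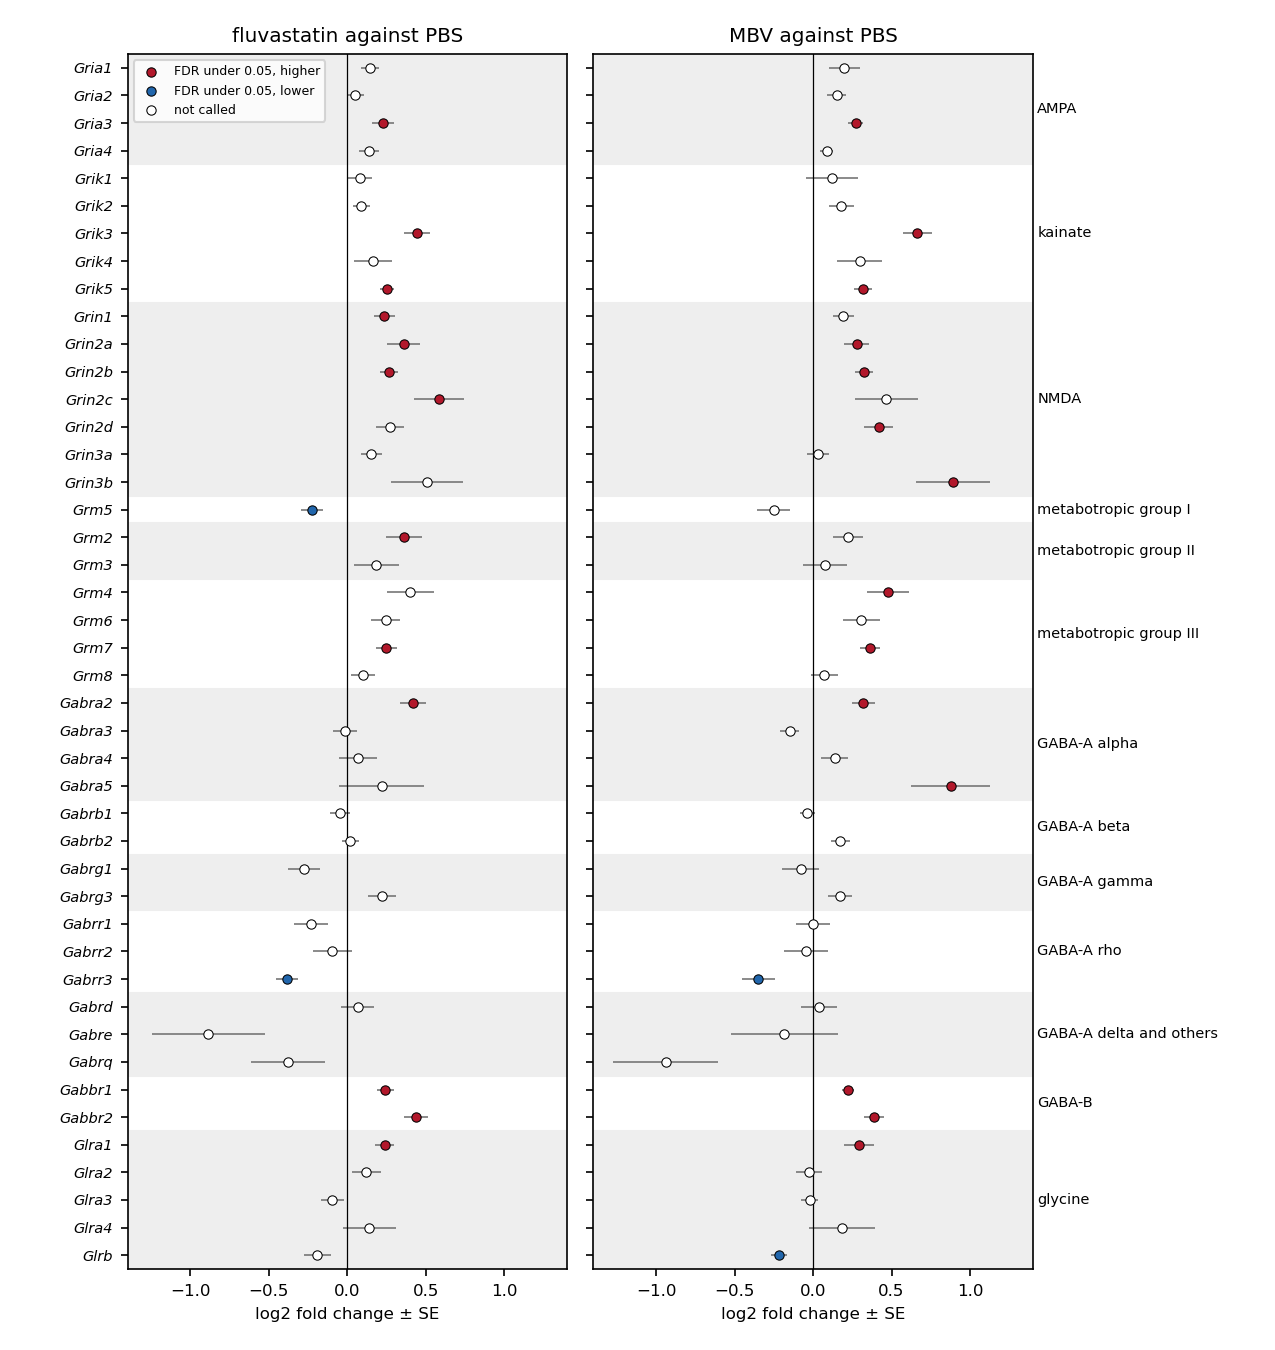
Fitted log2 fold change of 44 of the 48 subunits with its SE, for fluvastatin (left) and MBV (right) against PBS; filled points have an adjusted p under 0.05, red for higher and blue for lower. All 16 AMPA, kainate and NMDA subunits lie to the right of 0 in both panels.

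The ionotropic glutamate receptor subunits shared 1 direction. All 16 subunits had a log2 fold change above 0 in each comparison. Of them, 7 were called higher with fluvastatin, 7 with MBV and 0 lower with either, and the medians were 0.23 and 0.28. Among all genes at the count minimum, 11.4% were called higher with fluvastatin and 14.7% with MBV. The direction above 0 held in every fit with a library left out for fluvastatin. For MBV, 15 of 16 were above 0 without its first or its second library and with the offset for base composition described below. With that offset, Grik3 and Gria3 stayed called in both comparisons and Grin2b with MBV, and the other calls of ionotropic subunits ended. Gria2, Gria4 and Grik2 were called higher in both comparisons with the offset alone. Summed over the 16 genes, the level was 1040.0, 999 and 1030.0 CPM in the PBS libraries, 1099, 1187 and 1176 after fluvastatin and 1193, 1276 and 1105 after MBV. Every treated library thus lay above every PBS library. To show what these subunits share, the coding bases around the third membrane segment of the channel are printed for 1 AMPA, 2 kainate and 1 NMDA subunit, from the canonical transcripts of GENCODE M39 on GRCm39, 5′ to 3′. The capitals mark 27 bases that encode a 9-residue stretch lining the gate, found in 14 of the 16 members, with Grin3a and Grin3b the exceptions.
Gria2 (chr3:80609861-80609917, minus strand, coding exon 12): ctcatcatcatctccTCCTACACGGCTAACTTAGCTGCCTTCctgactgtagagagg
Grik3 (chr4:125587820-125587876, plus strand, coding exon 13): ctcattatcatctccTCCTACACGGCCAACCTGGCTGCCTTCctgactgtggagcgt
Grik5 (chr7:24715329-24715385, minus strand, coding exon 16): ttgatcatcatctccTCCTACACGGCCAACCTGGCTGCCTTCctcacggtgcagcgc
Grin1 (chr2:25187196-25187252, minus strand, coding exon 14): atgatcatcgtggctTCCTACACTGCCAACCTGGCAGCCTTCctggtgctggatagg
Over these 57 bases, Grik3 was identical to Gria2 at 50 and Grik5 at 46, whereas Grin1 matched it at 40.

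NMDA receptors, which need glutamate and a co-agonist and admit calcium, contain Grin1 with Grin2 or Grin3 subunits. Grin2b, the glutamate-binding subunit with the largest number of reads among them, stood at 130.4, 119.7 and 140.0 CPM in the PBS libraries, 149.6, 163 and 157 after fluvastatin and 159, 168 and 164 after MBV. Neither treated group overlapped PBS. The log2 fold change was 0.27 ± 0.06 (edgeR adjusted p = 0.0111) for fluvastatin and 0.32 ± 0.06 (edgeR adjusted p = 0.00384) for MBV, each with its SE, called in 4 and 6 of the 6 fits without a library. Grin2a, the other major Grin2 gene of mature neurons, stood at 46.8, 40.6 and 50.9 CPM with PBS, 49.6, 63.5 and 64.5 after fluvastatin and 52.98, 57.6 and 58.3 after MBV. Its first fluvastatin library fell among the PBS libraries and the MBV libraries lay above all of them. The log2 fold changes were 0.36 ± 0.10 (edgeR adjusted p = 0.036) and 0.28 ± 0.08 (edgeR adjusted p = 0.0301), called in 2 and 3 of the 6 such fits.

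Grin1 itself stood at 77.1, 72.96 and 84.8 CPM with PBS, 85.2, 99.6 and 92.1 after fluvastatin and 87.004, 97.8 and 85.6 after MBV. The treated libraries lay above PBS, though the nearest of them by less than 1 CPM. It was called with fluvastatin, at 0.24 ± 0.07 (edgeR adjusted p = 0.0368) and in 2 of the 6 such fits, and missed the threshold with MBV, at 0.19 ± 0.07 (edgeR adjusted p = 0.0676). Grin2c was called higher with fluvastatin, at 0.58 ± 0.16 (edgeR adjusted p = 0.0274) and in 1 of the 6 such fits, and stood at 0.47 with MBV (edgeR adjusted p = 0.122). Grin2d was called with MBV, at 0.42 ± 0.09 (edgeR adjusted p = 0.0107), and stood at 0.27 with fluvastatin (edgeR adjusted p = 0.0533). Being called in 1 comparison and not in the other does not show a difference between treatments, and none of these subunits was called between MBV and fluvastatin. The highest fitted NMDA value, 0.89 ± 0.23 (edgeR adjusted p = 0.0226) for Grin3b with MBV, was called in 3 of the 6 such fits and rests on 31 to 67 counts per library, and 32.1% of the exon bases of Grin3b are shared with Tmem259 on the opposite strand, so it is uncertain. Grin3a, which forms glycine-gated or less calcium-permeable receptors, had 0.15 and 0.03 and was not called.

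Of the AMPA subunits, Gria3 alone was called. It stood at 58.7, 56.8 and 59.95 CPM with PBS, 61.2, 75.3 and 69.3 after fluvastatin and 67.9, 72.9 and 72.6 after MBV. No treated library reached down into the PBS range. The log2 fold change was 0.23 ± 0.07 (edgeR adjusted p = 0.0453) with fluvastatin and 0.27 ± 0.05 (edgeR adjusted p = 0.00391) with MBV, called in 1 and 6 of the 6 fits without a library. Gria2, whose edited form makes AMPA receptors impermeable to calcium, had 0.05 ± 0.05 (edgeR adjusted p = 0.52) and 0.15 ± 0.06 (edgeR adjusted p = 0.0993), and its first fluvastatin library was below all PBS libraries. Gria1 had 0.15 and 0.20, and Gria4 0.14 and 0.09, with edgeR adjusted p of 0.123, 0.172, 0.152 and 0.156 in that order.

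Of the kainate subunits, Grik3 and Grik5 changed in both comparisons. Grik3 stood at 14.5, 14.9 and 17.5 CPM with PBS, 20.6, 21.6 and 21.5 after fluvastatin and 22.3, 25.7 and 26.8 after MBV. All treated libraries lay above all PBS libraries, and the MBV libraries above the fluvastatin libraries. The log2 fold change against PBS was 0.44 ± 0.08 (edgeR adjusted p = 0.00513) and 0.67 ± 0.09 (edgeR adjusted p = 0.00152). Grik5, a high-affinity subunit that needs partners from Grik1 to Grik3, stood at 73.1, 74.5 and 75.9 CPM with PBS, 89.1, 90.4 and 87.6 after fluvastatin and 93.5, 99.9 and 87.4 after MBV. The PBS libraries kept within 3 CPM of each other and below the rest, and the log2 fold changes were 0.25 ± 0.04 (edgeR adjusted p = 0.00407) and 0.32 ± 0.05 (edgeR adjusted p = 0.00352). Both genes were called in each of the 6 fits that left out a library, in both comparisons. With the offset for base composition and length, however, Grik5 was not called in either, at 0.05 (edgeR adjusted p = 0.5) and 0.06 (edgeR adjusted p = 0.499). Grik1, Grik2 and Grik4 were not called, with log2 fold changes of 0.08, 0.09 and 0.16 for fluvastatin and 0.12, 0.18 and 0.30 for MBV.

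**Figure D3:**
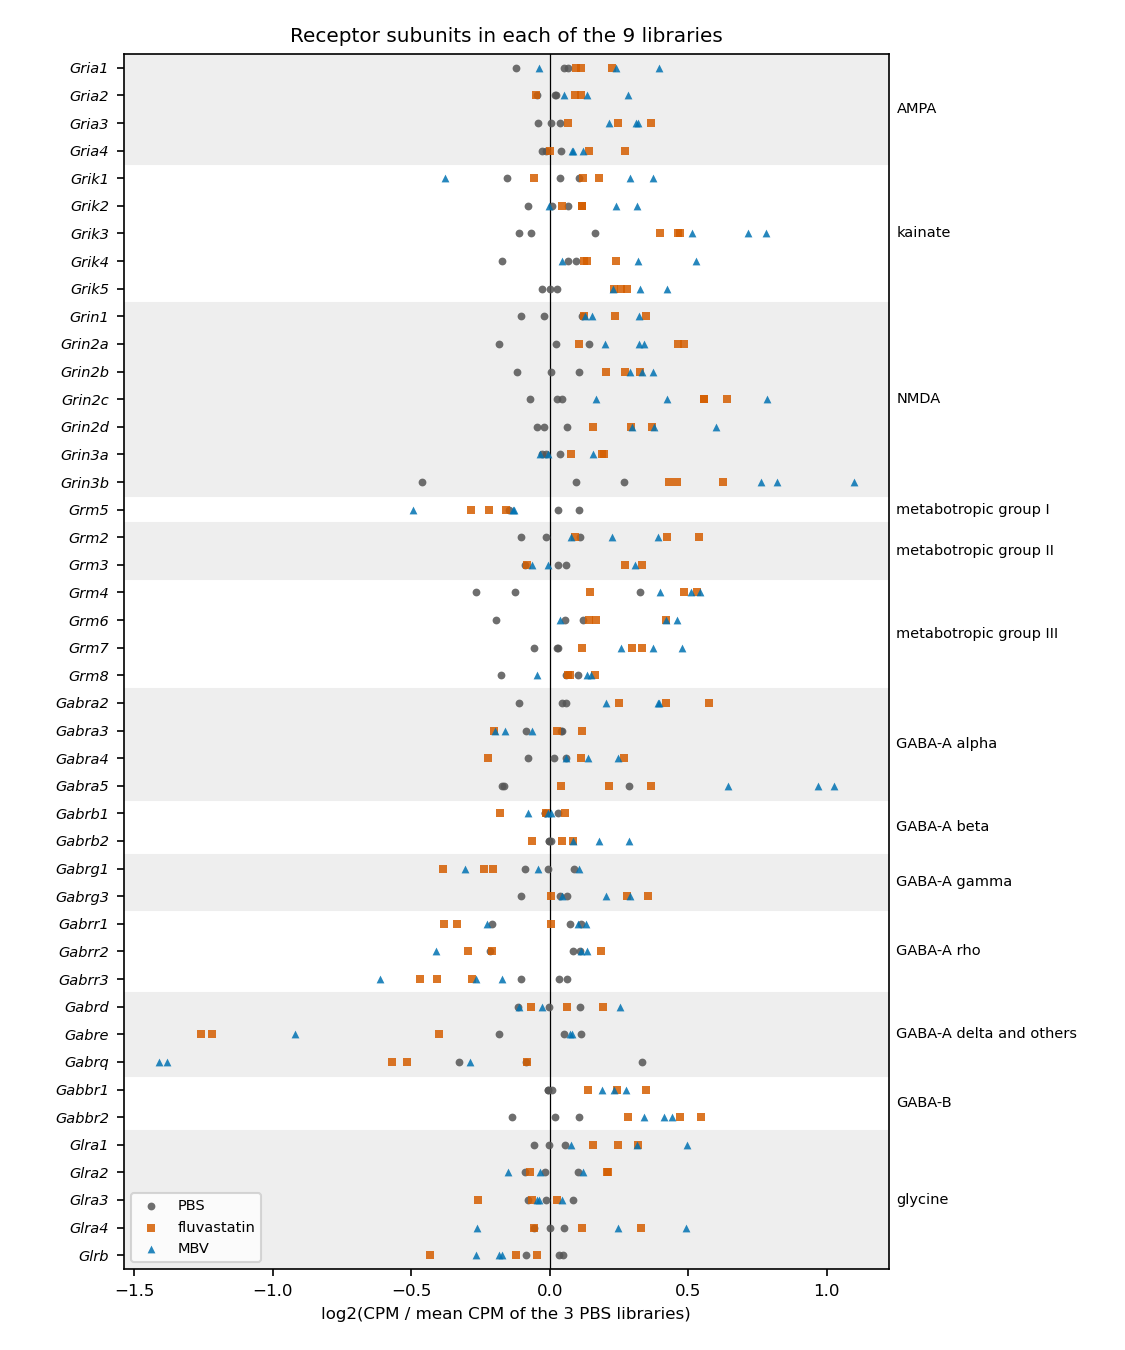
Level of 44 of the 48 subunits in each of the 9 libraries, as log2 of CPM over the mean of the 3 PBS libraries; circles are PBS, squares fluvastatin and triangles MBV, and shaded bands separate the families. Treated libraries lie to the right for Grik3, Grik5 and both GABA-B genes and to the left for Gabrr3.

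Metabotropic glutamate receptors act through G proteins and fall into 3 groups by sequence and coupling. In group I, which couples to phospholipase C, Grm5 stood at 65.7, 62.5 and 55.2 CPM with PBS, 54.8, 50.2 and 52.5 after fluvastatin and 55.8, 55.997 and 43.4 after MBV. With fluvastatin it was called lower, at -0.22 ± 0.07 (edgeR adjusted p = 0.0491), just under the threshold and in 2 of the 6 fits without a library. With MBV it was not called, at -0.25 ± 0.10 (edgeR adjusted p = 0.106). In group II, Grm2 was called higher with fluvastatin, at 0.36 ± 0.11 (edgeR adjusted p = 0.0488), in 1 of the 6 such fits, and Grm3 was not called.

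Group III holds presynaptic receptors and Grm6. Grm7, a low-affinity receptor of presynaptic terminals, stood at 39.97, 40.1 and 37.8 CPM with PBS, 42.6, 49.5 and 48.2 after fluvastatin and 50.9, 54.7 and 46.97 after MBV. All treated libraries exceeded all PBS libraries, at log2 fold changes of 0.25 ± 0.07 (edgeR adjusted p = 0.0241) and 0.36 ± 0.06 (edgeR adjusted p = 0.00408), called in 2 and 6 of the 6 fits without a library. Grm4 was called with MBV, at 0.48 ± 0.14 (edgeR adjusted p = 0.0295) and in 2 of the 6 such fits, and stood at 0.40 with fluvastatin (edgeR adjusted p = 0.0891). Grm6 stood at 102, 107 and 86.1 CPM with PBS, 132, 110.4 and 109 after fluvastatin and 132, 136 and 101 after MBV. MBV library 3 lay between PBS libraries, and the log2 fold changes of 0.25 ± 0.09 (edgeR adjusted p = 0.0904) and 0.31 ± 0.12 (edgeR adjusted p = 0.0816) missed the threshold. Grm8 had 0.10 and 0.07 and was not called.

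GABA-A receptors showed no common direction. Of 17 subunits, 1 was called higher and 3 lower with fluvastatin, and 2 higher and 3 lower with MBV, with medians of -0.07 and -0.04. The shares called, 23.5% and 29.4%, lay near the 23.8% and 31.8% of all genes at the count minimum. With the offset for base composition and length, described below, the GABA-A calls were all higher. They were Gabra2 and Gabrg3 with fluvastatin, and Gabra2, Gabra4, Gabra5, Gabrg3 and Gabrb2 with MBV. Gabrg3 had 0.31 (edgeR adjusted p = 0.0459) and 0.26 (edgeR adjusted p = 0.041) with it. Their summed level was 901, 861 and 836 CPM in the PBS libraries, 781, 783 and 807 after fluvastatin and 845, 855 and 760.3 after MBV. The fluvastatin libraries lay below the PBS libraries and the MBV libraries overlapped them. All GABA-A and glycine receptor subunits carry the loop closed by 2 cysteines that names their superfamily, and a search of the coding bases for 2 cysteine codons with 13 residues between them, of the loop's known pattern, found it in all 22 members. The loops of Gabrr3 and Gabra2, which were called in both comparisons in opposite directions, are printed from GENCODE M39 on GRCm39, 5′ to 3′, with the cysteine codons in capitals.
Gabrr3 (chr16:59253825-59253869, plus strand, coding exon 5): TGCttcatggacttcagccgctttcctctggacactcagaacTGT
Gabra2 (chr5:71170063-71170107, minus strand, coding exon 6): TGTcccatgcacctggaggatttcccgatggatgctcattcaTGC
The loop of Gabrr3 was identical to that of Gabra2 at 23 of 45 bases.

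With fluvastatin all 3 rho subunits had a log2 fold change below 0, and in both comparisons Gabrr3 alone was called. With the offset for base composition and length, described below, none of them was called. Gabrr3 stood at 42.3, 41.5 and 37.7 CPM with PBS, 33.4, 29.3 and 30.6 after fluvastatin and 33.7, 35.9 and 26.5 after MBV. All treated libraries were below PBS, at log2 fold changes of -0.38 ± 0.07 (edgeR adjusted p = 0.00438) and -0.35 ± 0.10 (edgeR adjusted p = 0.0362), called in 6 and 3 of the 6 fits without a library. The neighbouring genes Gabrr1 and Gabrr2 on chromosome 4, of higher level, were not called, at -0.23 ± 0.11 (edgeR adjusted p = 0.177) and 0.00 ± 0.11 (edgeR adjusted p = 0.999) for Gabrr1 and -0.09 and -0.04 for Gabrr2. Gabra2, an alpha subunit enriched at some inhibitory synapses, moved up, from 30.9, 27.4 and 30.5 CPM with PBS to 35.2, 44.1 and 39.6 after fluvastatin and 34.1, 38.8 and 38.9 after MBV. No treated library overlapped PBS, and the log2 fold changes were 0.42 ± 0.08 (edgeR adjusted p = 0.00675) and 0.32 ± 0.07 (edgeR adjusted p = 0.0106). Gabra5 was called with MBV, at 0.88 ± 0.25 (edgeR adjusted p = 0.031), on 21 to 40 counts per library, in 2 of the 6 fits without a library, and some of its exon bases overlap exons on the opposite strand. Without the offset, the beta subunits Gabrb1 and Gabrb2 were not called, at -0.04 and -0.04 for Gabrb1 and 0.02 ± 0.06 (edgeR adjusted p = 0.83) and 0.17 ± 0.06 (edgeR adjusted p = 0.0596) for Gabrb2. With the offset, Gabrb2 was called higher with MBV, at 0.32 (edgeR adjusted p = 0.00811), and not with fluvastatin, at 0.17 (edgeR adjusted p = 0.0769). Gabrq and Gabre, at 18 to 83 and 7 to 23 counts per library, had the lowest fitted values, -0.94 ± 0.33 (edgeR adjusted p = 0.067) for Gabrq with MBV and -0.88 ± 0.36 (edgeR adjusted p = 0.115) for Gabre with fluvastatin, and neither was called.

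Both subunits of the GABA-B receptor, a G protein-coupled receptor that works as a dimer of Gabbr1 and Gabbr2, were called higher with each treatment, Gabbr1 only without the offset for base composition and length. Gabbr2, the subunit that couples to the G protein, stood at 62.6, 56.3 and 66.6 CPM with PBS, 75.1, 90.3 and 85.6 after fluvastatin and 78.3, 83.99 and 82.3 after MBV. Gabbr1 stood at 199, 199 and 201 CPM with PBS, 219, 253 and 236 after fluvastatin and 227, 234 and 241 after MBV. For both genes every treated library lay above every PBS library. The log2 fold changes were 0.44 ± 0.08 (edgeR adjusted p = 0.00434) and 0.39 ± 0.06 (edgeR adjusted p = 0.00266) for Gabbr2, and 0.24 ± 0.05 (edgeR adjusted p = 0.00983) and 0.22 ± 0.04 (edgeR adjusted p = 0.00393) for Gabbr1. With fluvastatin Gabbr1 was called in 5 of the 6 fits without a library, and the other 3 values in all 6. With the offset Gabbr1 had 0.14 (edgeR adjusted p = 0.133) and 0.09 (edgeR adjusted p = 0.158).

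Of the glycine receptor subunits, Glra1 stood at 30.6, 31.9 and 29.5 CPM with PBS, 38.2, 36.4 and 34.2 after fluvastatin and 38.2, 43.3 and 32.4 after MBV, and the treated libraries lay above PBS. It was called higher in both comparisons, at 0.24 ± 0.06 (edgeR adjusted p = 0.0225) and 0.30 ± 0.10 (edgeR adjusted p = 0.0483), in 3 and 1 of the 6 fits without a library. Its partner Glrb stood at 67.3, 61.9 and 67.9 CPM with PBS, 48.7, 63.7 and 60.4 after fluvastatin and 54.7, 57.9 and 58.3 after MBV. Glrb was called lower with MBV, at -0.22 ± 0.05 (edgeR adjusted p = 0.0161) and in 4 of the 6 such fits, and with fluvastatin, where its second library lay among PBS, it had -0.19 ± 0.09 (edgeR adjusted p = 0.165). Glra2, Glra3 and Glra4 were not called, with log2 fold changes between -0.09 and 0.18. With the offset for base composition and length, neither Glra1 nor Glrb was called in either comparison. With it Glra2 was called higher with fluvastatin, at 0.33 (edgeR adjusted p = 0.0461), and Glra3 with MBV, at 0.24 (edgeR adjusted p = 0.0273).

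**Figure D4:**
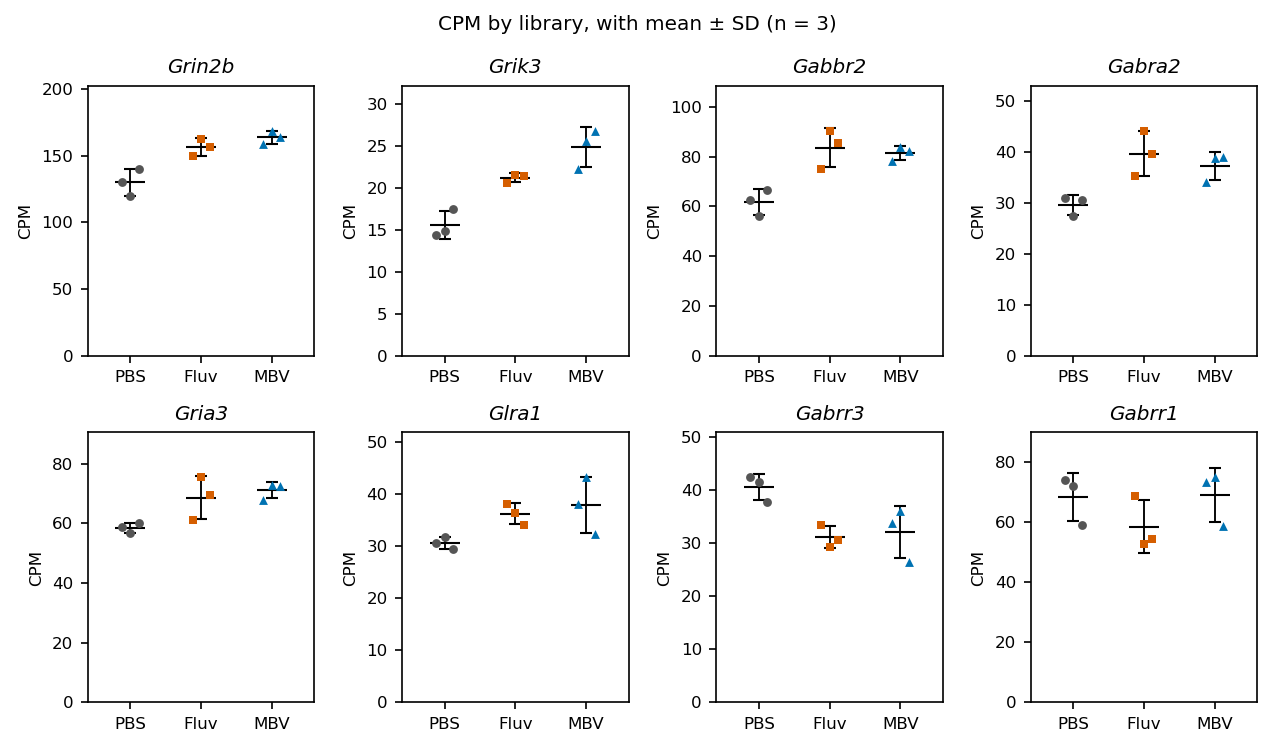
CPM of 8 subunits in each library, with the axis from 0; points are libraries and the bar with whiskers is the mean ± SD (n = 3). Grin2b, Grik3, Gria3, Glra1, Gabbr2 and Gabra2 are higher and Gabrr3 lower in every treated library than in any PBS library, while Gabrr1 overlaps.

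Between MBV and fluvastatin no member was called, beside 0.0588% of the 18721 genes tested. In edgeR's quasi-likelihood test 3 of the 48 had an unadjusted p under 0.05, beside 10.7% of all genes tested, and in DESeq2 1 did. In 3 members all MBV libraries lay above all fluvastatin libraries and in 0 below, beside 8.53% and 7.88%. These 3 were Grik3, with 0.23 ± 0.08 (edgeR adjusted p = 0.388), Gabra5, with 0.67 ± 0.24 (edgeR adjusted p = 0.409), and Grin3b, with 0.39 ± 0.19 (edgeR adjusted p = 0.498), all as log2 of MBV over fluvastatin. The 95% interval of the difference lay within 0.5 log2 units of 0 for 42 of the 48 members and within 1 for 45. It ran from -0.29 to 0.11 for Gabra2, from -0.19 to 0.12 for Gabbr2 and from -0.05 to 0.18 for Grin2b. For the low genes Gabre, Gabrq and Gabra5 it was wider, reaching 1.69 log2 units for Gabre. These intervals limit the size of a difference and do not show that the treatments acted alike.

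Libraries of the same group differed most for a small set of members. Grik1, Gabrr2, Gabrr1 and Grm6, all used by bipolar cells, were among the 8 members with the largest spread within groups. The others were Gabrq, with the largest spread of all, Gabre, Grm4 and Glra4. Of these, Gabrq, Gabre and Glra4 had low counts. Grik1 stood at 131, 125 and 109.6 CPM with PBS, 138, 117 and 132 after fluvastatin and 149, 158 and 93.9 after MBV, and Gabrr2 at 60.9, 62.01 and 49.5, 65.4, 46.8 and 49.8 and 62.2, 63.1 and 43.3. Gabrr1 stood at 74.03, 71.98 and 59.2, 68.6, 52.5 and 54.2 and 73.4, 74.8 and 58.5. The third PBS and the third MBV library were the lowest of their groups for Grik1, Gabrr2, Gabrr1 and Grm6. The 7 bipolar cell markers, of which Grm6 is 1, had a mean level of 7.19, 7.22 and 6.96 on the log2(CPM + 0.5) scale in the PBS libraries, 7.15, 6.90 and 6.87 after fluvastatin and 7.07, 7.09 and 6.79 after MBV, lowest in the same PBS and MBV libraries. The part of bipolar cell content in these values was not tested.

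Genes that work with the receptors were counted from lists set by function, to be read beside the 23.8% of genes at the count minimum that were called with fluvastatin and the 31.8% with MBV. Of 14 auxiliary subunits of AMPA and kainate receptors, which set their trafficking and gating, 6 were called higher and 1 lower with fluvastatin, and 9 higher and 1 lower with MBV. Cacng3 rose from 30.6 ± 1.85 CPM (SD, n = 3) to 44.1 ± 3.07 with fluvastatin and 43.4 ± 2.804 with MBV, and Cacng8 had log2 fold changes of 0.60 ± 0.16 (edgeR adjusted p = 0.0237) and 0.82 ± 0.19 (edgeR adjusted p = 0.0134). The lower gene in both was Neto1, an auxiliary subunit of kainate receptors, with -0.34 ± 0.08 (edgeR adjusted p = 0.0118) and -0.37 ± 0.11 (edgeR adjusted p = 0.0403). Of 18 postsynaptic scaffold genes of glutamate synapses, 8 were higher and 1 lower with fluvastatin, and 10 higher and 1 lower with MBV. Dlg4, which encodes the scaffold PSD-95, had 0.46 ± 0.06 (edgeR adjusted p = 0.00112) and 0.34 ± 0.06 (edgeR adjusted p = 0.00295). Homer1, which ties group I metabotropic receptors to their scaffold, was the lower gene, at -0.25 ± 0.05 (edgeR adjusted p = 0.00691) and -0.32 ± 0.05 (edgeR adjusted p = 0.00263).

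With the offset for base composition and length, which left 10.9% and 18.9% of all genes tested called, 3 auxiliary subunits and 5 scaffold genes were called higher with fluvastatin and 6 and 6 with MBV, and 0 were lower. Cacng3 and Dlg4 were among those called in both, and Neto1 and Homer1 were called in neither.

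At inhibitory synapses and in transmitter handling, the counts lay near the shares called over all genes at the count minimum. Of 7 scaffold genes, 2 were higher with fluvastatin and 3 with MBV and 0 lower, with Nlgn2, an adhesion protein of inhibitory synapses, at 0.36 ± 0.04 (edgeR adjusted p = 0.000846) and 0.44 ± 0.04 (edgeR adjusted p = 0.00048). Gphn, which encodes the scaffold gephyrin that holds glycine and many GABA-A receptors, had -0.11 ± 0.06 (edgeR adjusted p = 0.218) and -0.12 ± 0.05 (edgeR adjusted p = 0.103). Of 18 genes for transmitter synthesis and transport, 3 were higher and 3 lower with fluvastatin, and 3 higher and 1 lower with MBV. Glul, the glutamine synthetase of Müller glia, had -0.85 ± 0.26 (edgeR adjusted p = 0.0448) and -0.94 ± 0.34 (edgeR adjusted p = 0.0727). The GABA-synthesising Gad1 and Gad2 lay between -0.07 and 0.01. Of 12 genes of the Grm6 signalling cascade, Grm6 included, 2 were higher and 1 lower with fluvastatin, and 3 higher and 0 lower with MBV. Of the chloride transporters that set the sign of GABA responses, Slc12a5, the exporter of mature neurons, had 0.12 ± 0.04 (edgeR adjusted p = 0.083) and 0.25 ± 0.05 (edgeR adjusted p = 0.00495), and Slc12a2, the importer, -0.19 ± 0.05 (edgeR adjusted p = 0.023) and -0.19 ± 0.08 (edgeR adjusted p = 0.112). The delta receptor gene Grid1 was not called. With the offset, 1 of the inhibitory scaffold genes, Nlgn2, was called higher with fluvastatin, and 1 was higher and 1 lower with MBV. Among the transmitter genes, 1 was higher and 0 lower with fluvastatin, and 2 higher and 2 lower with MBV. Among the cascade genes, 1 was higher and 1 lower with fluvastatin, and 1 higher and 0 lower with MBV. Neither chloride transporter was called in either comparison. Between MBV and fluvastatin, 0 genes of these 7 lists were called.

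The members that rose and those that fell also differed in base composition. The median G and C content of the exons was 53.1% over the 14 members called higher with fluvastatin, 39.3% over the 4 called lower, 44.8% over the other 30 and 49.0% over the 15294 genes at the count minimum with an annotation. With MBV the medians were 53.1%, 39.3% and 44.8% as well. At the third codon position the medians were 69.4% for the members called higher and 53.8% for those called lower with fluvastatin, and 69.4% and 50.2% with MBV. Grik5 had 80.4% and Gabbr2 77.1% there, against 60.8% for Gabrr3 and 45.7% for Gabra2, which rose. Across the 48 members, which share their libraries and are not replicates, the Spearman correlation of log2 fold change with exon G and C content was 0.60 for each treatment, beside 0.38 and 0.37 across the 15294 genes. It was 0.11 for MBV against fluvastatin.

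**Figure D5:**
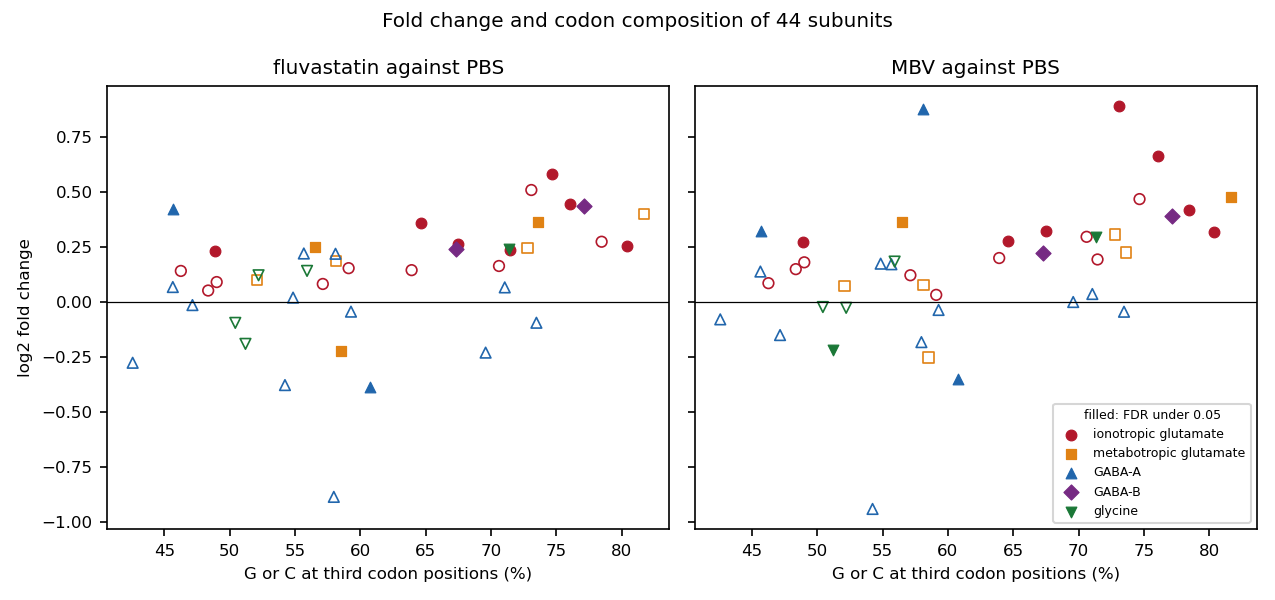
Log2 fold change of 44 of the 48 subunits against PBS, plotted over the percentage of G or C at the third codon position, for fluvastatin (left) and MBV (right); filled symbols have an adjusted p under 0.05 and shapes mark the receptor classes. Grik5 and Gabbr2 sit above 0 at the right, and Gabra2 above 0 at the left.

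When each library was given an offset for exon G and C content and length, an alternative chosen after the data were seen, 11 members were called higher and 0 lower with fluvastatin, and 14 higher and 0 lower with MBV. Of the 18 calls without it, 6 remained with fluvastatin and 7 with MBV. The lower calls ended in both comparisons, with Gabrr3 at -0.17 (edgeR adjusted p = 0.13) and -0.12 (edgeR adjusted p = 0.479). Gabra2 stayed higher, at 0.60 (edgeR adjusted p = 0.00304) and 0.50 (edgeR adjusted p = 0.00331), as did Grik3, at 0.29 (edgeR adjusted p = 0.0386) and 0.47 (edgeR adjusted p = 0.00701), Gria3, at 0.36 (edgeR adjusted p = 0.013) and 0.40 (edgeR adjusted p = 0.00189), Grm7, at 0.35 (edgeR adjusted p = 0.0114) and 0.47 (edgeR adjusted p = 0.00317), and Gabbr2, at 0.30 (edgeR adjusted p = 0.0311) and 0.21 (edgeR adjusted p = 0.0245). Of the 14 higher calls in each comparison, 8 ended with fluvastatin and 7 with MBV. Those of Grik5, Gabbr1, Grin2a and Glra1 ended in both, with Grin2a at 0.29 (edgeR adjusted p = 0.106) and 0.18 (edgeR adjusted p = 0.14) and Glra1 at 0.22 (edgeR adjusted p = 0.0559) and 0.26 (edgeR adjusted p = 0.112). Grin1 fell to 0.04 (edgeR adjusted p = 0.712) with fluvastatin and stood at -0.06 with MBV. The fluvastatin calls of Grin2b, Grin2c and Grm2 and the MBV calls of Grin2d, Grin3b and Grm4 ended as well. Gria2, Gria4, Grik2 and Gabrg3, of low G and C content, were called higher in both comparisons with the offset alone. In a single comparison, the offset alone gave higher calls for Glra2 with fluvastatin and for Gabra4, Gabrb2 and Glra3 with MBV.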

How the data were processed

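Whole mouse retinas were collected on day 2 after optic nerve crush and injection of PBS, fluvastatin, MBV or both. Per the labels, total RNA was sequenced as paired reads. The authors aligned and counted reads with CLC Genomics Workbench and the genome GRCm39, and the counts are as deposited, raw and per gene. Their tables also hold group means, fold changes, p-values and FDRs of each comparison, which were not used. In the table of the combined treatment, 6 count columns name no library or group, so that treatment was not analysed here. Groups and libraries follow the sample labels, and library totals ran from 21349516 to 30992040. Where 2 tables gave the same library, its counts were identical.

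For each comparison, genes counted at least once among its 6 libraries were scaled by TMM and tested with the quasi-likelihood test of edgeR 4.0.16 in R 4.3.3. Only the compared groups entered a fit, and p-values were adjusted by Benjamini-Hochberg over all genes tested. The procedure was tested on simulated data. CPM uses the TMM library sizes. Levels of marker lists are means of log2(CPM + 0.5). Exon lengths, base composition, coordinates and coding bases come from GENCODE M39 on GRCm39, in which 25493 of the 25655 genes were found by identifier, 94.8% of them with both ends within 5 kb. Whether reads were counted by strand is not given in the sources used here. No protein sequences were used. Instead, coding bases were translated in the search for shared stretches, and the pattern of the cysteine loop was widened to allow tyrosine in place of phenylalanine after the first form had missed the beta and delta subunits.

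The members and lists were chosen with earlier results of these data known. Named were members with an adjusted p under 0.05 (at most 12 per direction and comparison, by smallest p), the member of highest level per length in each family, Gria1 to Gria4, Grin1, Grm6, Gabrr1, Gabrr2, Glra1 and Glrb. Other members and genes of the lists were named after their values were seen, and some genes and 1 sequence are not reported here. Alternatives were DESeq2 1.42.0, RLE and upper-quartile factors, the members' count minimum (10 in 3 libraries) for all genes, a replicate block, 1 fit of the 9 libraries, division of the statistics by the genomic inflation, a fold change of at least 2 and leaving out each library. Python 3.11.15 with numpy 2.4.6, scipy 1.17.1, pandas 2.3.3 and matplotlib 3.10.9 was used for the rest.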

Additional observations from a re-analysis of the deposited data

How the results depend on the processing

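The count of members called, 18 with fluvastatin and 18 with MBV, kept within 1.5 times of itself under DESeq2 (18 and 19), RLE factors (18 and 18), upper-quartile factors (18 and 20), the stricter count minimum (18 and 19) and 1 fit of the 9 libraries (15 and 18). Over the fits without 1 library it ran from 7 to 24 with fluvastatin and from 10 to 28 with MBV. Dividing the statistics by the genomic inflation, 3.98 and 4.90, left 0 calls in either comparison, with 9 and 7 members at an unadjusted p under 0.05. The inflation is computed over all genes, of which 19.6% and 26.1% were called, and the cause of its size was not tested. A fold change of at least 2 left 0 members in both. With the offset for G and C content and length, chosen after the data were seen, 11 members were called with fluvastatin and 14 with MBV. MBV against fluvastatin gave 0 calls under all alternatives run. No named member changed direction while called. The members' median log2 fold change over the fits without 1 library ran from 0.12 to 0.18 with fluvastatin and from 0.13 to 0.18 with MBV.

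Libraries of the same replicate number did not deviate together, with correlations from -0.27 to 0.11, nor did every library correlate best with its own number. The numbers were therefore not taken to pair the samples, though deviations from means of 3 libraries cannot exclude a small shared effect. A replicate block gave 20 calls with fluvastatin, 20 with MBV and 0 for MBV against fluvastatin. Depth limits Gabra5, Gabre, Gabrq, Grin3b, Grin2c and Glra4, the 6 members with a mean under 100 counts; without them 30 of 42 members were above 0 in each comparison with PBS.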
